A study of Mus musculus with 117 samples.

Results

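The 9 CXC chemokine genes Cxcl1, Cxcl2, Cxcl3, Cxcl5, Cxcl9, Cxcl10, Cxcl12, Cxcl14 and Cxcl16 were followed in mouse spinal cord through injury and through postnatal life. They were taken by name, through their Entrez identifiers, and are 9 of the 27179 genes that were counted. The study used RiboTag mice, whose ribosomes gain a hemagglutinin tag in Cre-expressing cells and can be pulled down, with the mRNA on them, by an antibody. The precipitated RNA of each mouse is called its astrocyte library, and the RNA left in solution, from all cells of the same tissue, its flow-through library. There were 70 astrocyte and 47 flow-through libraries, and comparisons asked which chemokine mRNAs changed in astrocytes after spinal cord injury (SCI), when, and whether the astrocytes or the other cells held more of them. Fewer cells of a type and less RNA per cell cannot be told apart in such bulk libraries.

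The injury course used Aldh1l1-CreERT2-RiboTag mice, young adults of C57BL/6 background whose Cre is driven by the astrocyte gene Aldh1l1 and acts only after tamoxifen. Both libraries were made from each of 4 uninjured mice, from 5 mice at 2 d, and from 4 mice each at 5, 14, 28, 42 and 70 d after a complete crush of the thoracic cord. They are labelled female, but the flow-through library of 1 mouse at 5 d carries a male label, and it was kept with its astrocyte partner. Another 4 males at 5 d and 4 males at 14 d were compared with these females. The second line, 73.12 GFAP Cre-RiboTag (mGfap line), has a Cre under a mouse Gfap promoter that is active from early life, so that cells descended from Gfap-expressing progenitors can carry the tag as well. It gave both fractions from 5 uninjured mice at postnatal day 63 (P63; 3 males and 2 females) and 5 females at 14 d after SCI, and astrocyte libraries alone at P0 (4, all male), P3 (3), P7 (3), P14 (5), P21 (4) and P35 (4). The tissue block held the lesion core along with the cord next to it, and blood was cleared by perfusion.

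Chemokines are small secreted proteins that guide leukocytes through G protein-coupled receptors. Within the CXC class, the ligands with a Glu-Leu-Arg motif (Cxcl1, Cxcl2, Cxcl3 and Cxcl5) attract neutrophils through CXCR2 and are transcribed on NF-kappaB signalling, whereas Cxcl9 and Cxcl10 attract activated T cells through CXCR3 and are classic interferon-induced genes. Cxcl12 holds and guides CXCR4-bearing cells and is also bound by the scavenger receptor ACKR3, Cxcl14 is a constitutive chemokine of many resting tissues, and Cxcl16 is made as a transmembrane protein that binds CXCR6.

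In the GRCm38.p6 assembly, Cxcl5 (chr5:90759298-90761625), Cxcl3 (chr5:90786101-90788093), Cxcl1 (chr5:90891245-90893121) and Cxcl2 (chr5:90903899-90905938) lie in this order on the plus strand of chromosome 5. The interferon-induced pair Cxcl9 (chr5:92321331-92328079) and Cxcl10 (chr5:92346638-92348889) follows on the minus strand. Cxcl12 is at chr6:117168535-117181368 (plus strand), Cxcl14 at chr13:56288643-56296811 (minus strand) and Cxcl16 at chr11:70454389-70459984 (minus strand).

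The bases just upstream of the start are shown for Cxcl1, Cxcl2, Cxcl3 and Cxcl10, since the first 3 are nearby genes of the neutrophil-attracting group and Cxcl10 is one of the interferon-induced pair, and all 4 were called higher in astrocyte libraries at 2 d. Each run is the 160 bases before the RefSeq transcription start of GRCm38.p6, read 5′ to 3′ on the gene's own strand, from chr5:90891085-90891244 (plus), chr5:90903739-90903898 (plus), chr5:90785941-90786100 (plus) and chr5:92348890-92349049 (minus), respectively. Capitals mark matches to the NF-kappaB consensus on either strand and, in Cxcl3, to the TATA box.
Cxcl1: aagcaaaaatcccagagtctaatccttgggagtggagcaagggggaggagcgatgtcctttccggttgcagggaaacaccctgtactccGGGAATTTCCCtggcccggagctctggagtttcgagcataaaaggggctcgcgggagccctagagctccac
Cxcl2: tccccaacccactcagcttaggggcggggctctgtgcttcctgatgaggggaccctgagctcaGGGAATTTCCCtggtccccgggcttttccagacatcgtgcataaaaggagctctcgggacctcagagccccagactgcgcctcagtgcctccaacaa
Cxcl3: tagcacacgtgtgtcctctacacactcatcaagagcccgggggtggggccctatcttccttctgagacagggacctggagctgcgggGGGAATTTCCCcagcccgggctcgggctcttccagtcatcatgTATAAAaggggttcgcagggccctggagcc
Cxcl10: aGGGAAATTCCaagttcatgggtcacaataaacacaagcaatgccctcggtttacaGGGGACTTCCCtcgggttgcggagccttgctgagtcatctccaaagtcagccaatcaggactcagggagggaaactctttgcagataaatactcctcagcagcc

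Promoter windows, from 250 bases before to 50 bases after the start, were at hand for 7 of the 9 genes (not Cxcl5 and Cxcl16). The NF-kappaB consensus occurred in 8.46% of the 32851 RefSeq windows searched on both strands. Among the 7 genes it was found 71 to 61 bases before the start of Cxcl1, 97 to 87 bases before that of Cxcl2 and 73 to 63 bases before that of Cxcl3. These 3 matches are the same run of letters, which matches in overlapping positions on both strands. In Cxcl10 it lay at 159 to 150 and at 104 to 94 bases before the start. The core of the interferon-stimulated response element (GAAANNGAAA, in 3.44% of windows) was found at 213 to 204 bases before the start of Cxcl10, outside the printed run, and at 172 to 163 bases before that of Cxcl14. A GAS motif (TTCNNNGAA, in 8.3% of windows) began 191 bases before the start of Cxcl14, and the TATA box (TATAAA, in 13.6% of windows) at 30 to 25 bases before that of Cxcl3 and at 195 to 190 bases before that of Cxcl9. None of these motifs was matched in the window of Cxcl12.

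Levels are counts on a per-million scale (CPM), set by the TMM method of edgeR over all 117 libraries. Total counts ran from 67253656 to 128400518 in astrocyte libraries (median 93933978) and from 40710428 to 136008399 in flow-through libraries (median 97467271). Differences are log2 fold changes ± standard error (SE) of edgeR's quasi-likelihood test on the counts, and a gene was called when its p was under 0.01 after Benjamini-Hochberg adjustment over every gene tested. All 12 astrocyte markers of a list had a higher mean in the astrocyte fraction in every group that had both, by 3.69 to 5.11 on the log2 scale in the mean of the list. Markers of leukocytes were present in Aldh1l1 astrocyte libraries as well, and their values are given beside the results they move with. Erythrocyte markers were also higher in the astrocyte fraction of this line, with a mean log2 ratio of 2.57 in uninjured mice (5 of 5 genes above 0) and 1.71 at 2 d (3 of 5). In mGfap mice at 14 d it was -4.92, and the part of blood cells in the ratios of fractions was not tested. The shallowest flow-through library, replicate 2 at 2 d (40710428 counts), held no count for Cxcl1, Cxcl3 or Cxcl5, and without it all 9 flow-through differences at 2 d were still called. Exons of Cxcl16 share 552 of their 1813 bases with Zmynd15 on the opposite strand, and 16.9% of its stretches of 50 bases occur in transcripts of that gene. Its counts are therefore uncertain, because the study counted with default parameters and does not state the use of strand. Shared stretches made up 5.84% of Cxcl2 (with Cxcl3), 4.29% of Cxcl3, 3.59% of Cxcl10 and under 1% of the others.

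Astrocyte libraries of the resting cord held mostly 1 of the 9 mRNAs. Per kb of exon, Cxcl14 made up 96.3% of the summed level of the 9 genes in uninjured astrocyte libraries, with 265.6 ± 34.7 CPM per kb (SD, n = 4). Cxcl16 (1.71%), Cxcl12 (1.10%) and Cxcl10 (0.859%) came next, at 4.71 ± 1.85, 3.04 ± 0.883 and 2.37 ± 0.964 CPM per kb, with overlapping ranges but in this order in each of the 4 libraries. Cxcl1, Cxcl5 and Cxcl9 were at 0.0405 CPM per kb or less, and Cxcl2 and Cxcl3 had no count in any of the 4 libraries. In the uninjured flow-through, Cxcl14 took 44.3%, Cxcl16 25.8% and Cxcl12 25.8%.

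After injury the make-up was different. At 2 d the astrocyte libraries held more Cxcl3 than any other of the 9 per kb in the mean (39.95% of the sum), followed by Cxcl14 (30.2%), Cxcl10 (9.45%) and Cxcl2 (8.49%). The SD of Cxcl3 (87.9 ± 53.2 CPM per kb, n = 5) reached the level of Cxcl14 (66.4 ± 6.16). At 14 d Cxcl14 (35.8%) and Cxcl10 (35.1%) were level within their spread, at 114.6 ± 13.8 and 112.3 ± 52.1 CPM per kb (n = 4), and Cxcl16 made up 23.1%. By 70 d Cxcl14 was back at 60.9%, with Cxcl10 at 16.7%, Cxcl16 at 11.4% and Cxcl12 at 8.33%. Flow-through libraries looked different after injury, since Cxcl16 held the largest share, 54.2% at 2 d and 55.4% at 14 d.

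**Figure D1:**
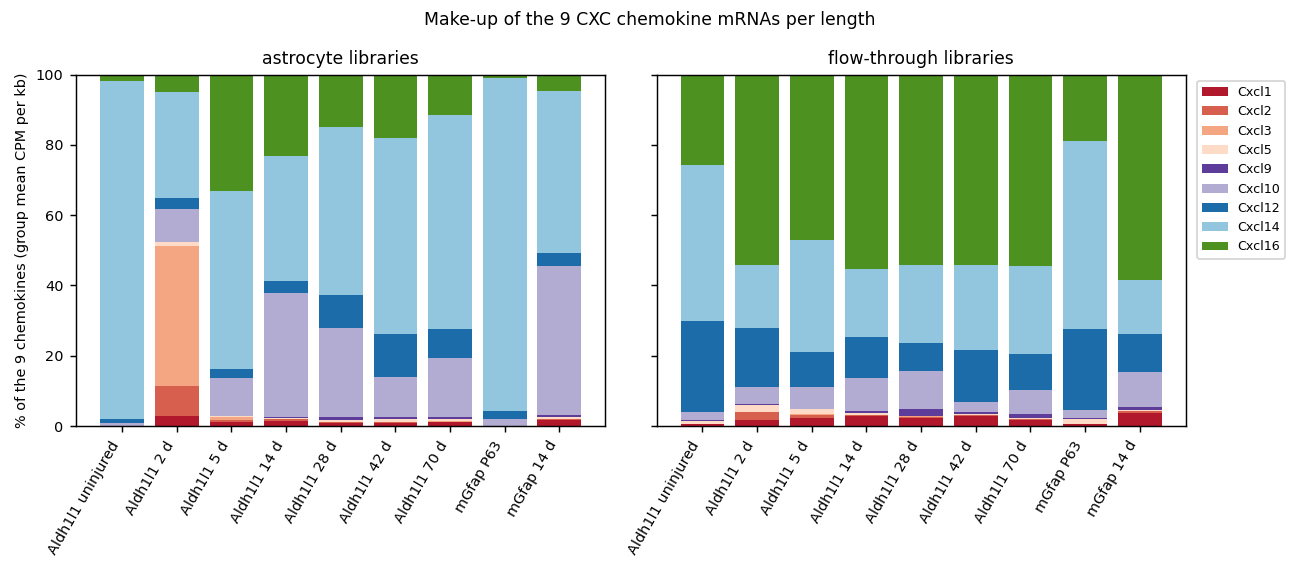
Share of each of the 9 CXC chemokines in their summed level (group mean CPM per kb of exon, in percent) in astrocyte (left) and flow-through (right) libraries of each group. Cxcl14 fills 96.3% of the uninjured Aldh1l1 astrocyte bar, Cxcl3 39.95% at 2 d, and Cxcl16 more than any other gene in the flow-through bars of injured mice.

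All 4 neutrophil-attracting ligands were called higher in the astrocyte libraries at 2 d. Cxcl3 and Cxcl2 went from no count to the highest mean levels per kb of these 4 genes at 2 d and were much lower at 5 d, whereas Cxcl1 and Cxcl5 were called higher at every time to 70 d. Because Cxcl1, Cxcl2, Cxcl3, Cxcl5 and Cxcl9 lay under the low-count limit in all 4 uninjured astrocyte libraries, these 5 genes entered the test only through injured libraries and had to be higher there, and their tests are given as a description. Markers of neutrophils and macrophages rose in the same astrocyte libraries at 2 d, 6 of 12 (median log2 difference 1.75) and 12 of 12 (4.99; 30.2% of all genes rose), and their part in the values below was not tested.

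Cxcl3, the ligand with no count in uninjured mice of either fraction, measured 146.3, 29.3, 66.3, 57.98 and 147.4 CPM in the 5 astrocyte libraries at 2 d. At 5 d it measured 0.343, 1.58, 1.10 and 1.65 CPM, all below every library at 2 d. Later libraries ran from 0 to 0.918 CPM, with no count in 6 of 16. Against a floor of 3 counts per library in uninjured mice, the mean at 2 d was at least 2658-fold higher (2228-fold without replicate 5; adjusted p = 1.01e-08) and that at 5 d at least 34.7-fold higher (adjusted p = 0.000358). The fall between these days was -6.29 ± 0.83 (adjusted p = 1.54e-06). From 14 to 70 d it was not called, with adjusted p from 0.0243 to 0.248, although DESeq2 called it at 14 d (adjusted p = 0.00322) and 70 d (adjusted p = 0.00022). The flow-through held little of it at 2 d, with 0.304, 0, 0, 0.767 and 0.480 CPM, so the fractions did not overlap.

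Cxcl2, another CXCR2 ligand, measured 15.6, 2.82, 4.27, 5.19 and 73.2 CPM in astrocyte libraries at 2 d, and 0 in all 4 uninjured ones. Replicate 5 stood far above the others, and the mean was at least 601-fold higher than the floor with it and 207-fold without it (adjusted p = 1.22e-06). Its level fell to 0.373, 1.08, 1.23 and 1.77 CPM at 5 d (-4.21 ± 0.953 against 2 d, adjusted p = 0.000808; 0.0105 with only these groups in the fit, and -2.67 without replicate 5 of 2 d, adjusted p = 0.00284). It lay between 0.192 and 0.781 CPM from 28 to 70 d, always above the empty uninjured libraries. The lower bounds were 33.1-fold at 5 d, 52.8-fold at 14 d (19.3-fold without replicate 2, whose 5.16 CPM exceeded 0.472, 0.982 and 0.493 in the others), and 13.9-fold, 15.6-fold and 15.3-fold at 28, 42 and 70 d. At 28, 42 and 70 d the call (adjusted p = 0.0053, 0.00415 and 0.00419) was lost without any 1 of the 4 uninjured libraries, also at 28 d without replicate 3 and at 70 d without replicate 2 of those days (adjusted p up to 0.016). From 5 to 70 d it was lost with the newer quasi-likelihood fit of edgeR (adjusted p = 0.0323 to 0.254), and from 28 d on also with counts halved (adjusted p = 0.0183 to 0.0229).

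Cxcl1, the ligand often called KC in mice, had 0 to 4 counts in uninjured astrocyte libraries (0.0442, 0.0426, 0 and 0 CPM). It measured 3.50, 2.32, 3.81, 3.46 and 17.3 CPM at 2 d, and 1.52, 1.16, 1.92 and 2.16 at 5 d. At 14 d it was at 5.52, 4.98, 4.77 and 2.77 CPM. None of these groups overlapped the uninjured one, nor did those at 28, 42 and 70 d (0.580 to 4.91 CPM). The log2 difference was 8.01 ± 0.845 at 2 d (adjusted p = 3.57e-09; 7.12 without replicate 5), 6.14 ± 0.845 at 5 d and 7.52 ± 0.848 at 14 d, and from 6.41 to 6.83 later. The fall from 2 to 5 d (-1.87 ± 0.542, adjusted p = 0.00502) was -0.99 and not called without replicate 5 of 2 d (adjusted p = 0.0607). Leaving out any of replicates 1 to 3 of 5 d (adjusted p = 0.012 to 0.0212) or fitting only these groups (adjusted p = 0.0172) also ended the call.

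Cxcl5 began at 0.0664, 0.0426, 0.0814 and 0.0779 CPM in uninjured astrocyte libraries. It measured 3.45, 1.80, 4.37, 3.05 and 4.07 CPM at 2 d, and 0.444, 0.875, 1.20 and 1.44 at 5 d. By 70 d it stood at 2.14, 3.23, 3.70 and 1.87 CPM. The groups did not overlap uninjured mice at any time, and the log2 differences were 5.62 ± 0.428 at 2 d (adjusted p = 1.95e-12), 3.83 ± 0.422 at 5 d and 5.33 ± 0.431 at 70 d. Between 2 and 5 d it fell by 1.79 (SE 0.328, adjusted p = 3.69e-05).

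In the flow-through the same ligands started from low counts too. Cxcl2 and Cxcl3 lay under the low-count limit in all 4 uninjured flow-through libraries, so they too had to be higher after injury. Cxcl1 went from 0.127, 0.360, 0.139 and 0.0163 CPM to 5.16, 0, 1.36, 3.57 and 1.66 at 2 d (3.87 ± 0.791, adjusted p = 8.37e-05; 4.19 without replicate 2, but adjusted p = 0.0248 with only these groups in the fit). The empty replicate 2 overlapped the uninjured group, and all later times were called (3.75 to 4.82). Cxcl2 went from 0.0158, 0, 0.0653 and 0.0163 CPM to 4.10, 3.80, 2.13, 4.24 and 3.52 at 2 d, a log2 difference of 7.19 ± 0.804 (adjusted p = 5.38e-09), and remained called with 4.14 to 5.08 from 5 to 70 d. Cxcl3 was at least 13.3-fold higher at 2 d and 12.4-fold higher at 5 d (adjusted p = 0.00143 and 0.00221), and later it was not called (adjusted p = 0.0173 to 0.114; 0.00767 with DESeq2 at 70 d). Cxcl5 was called at 2 d (3.66 ± 0.98, adjusted p = 0.00154; 0.0448 with only these groups in the fit), which rested on replicate 1 with 17.9 CPM against 0, 0.569, 1.82 and 1.22 in the others, and without it the difference was 1.45 (adjusted p = 0.0728). It was not called later, but with only the injured and uninjured groups fitted it was called at 5 d (2.71, adjusted p = 0.00251) and 14 d (2.22, adjusted p = 0.000245), and at 14 and 28 d it did not overlap uninjured mice.

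**Figure D2:**
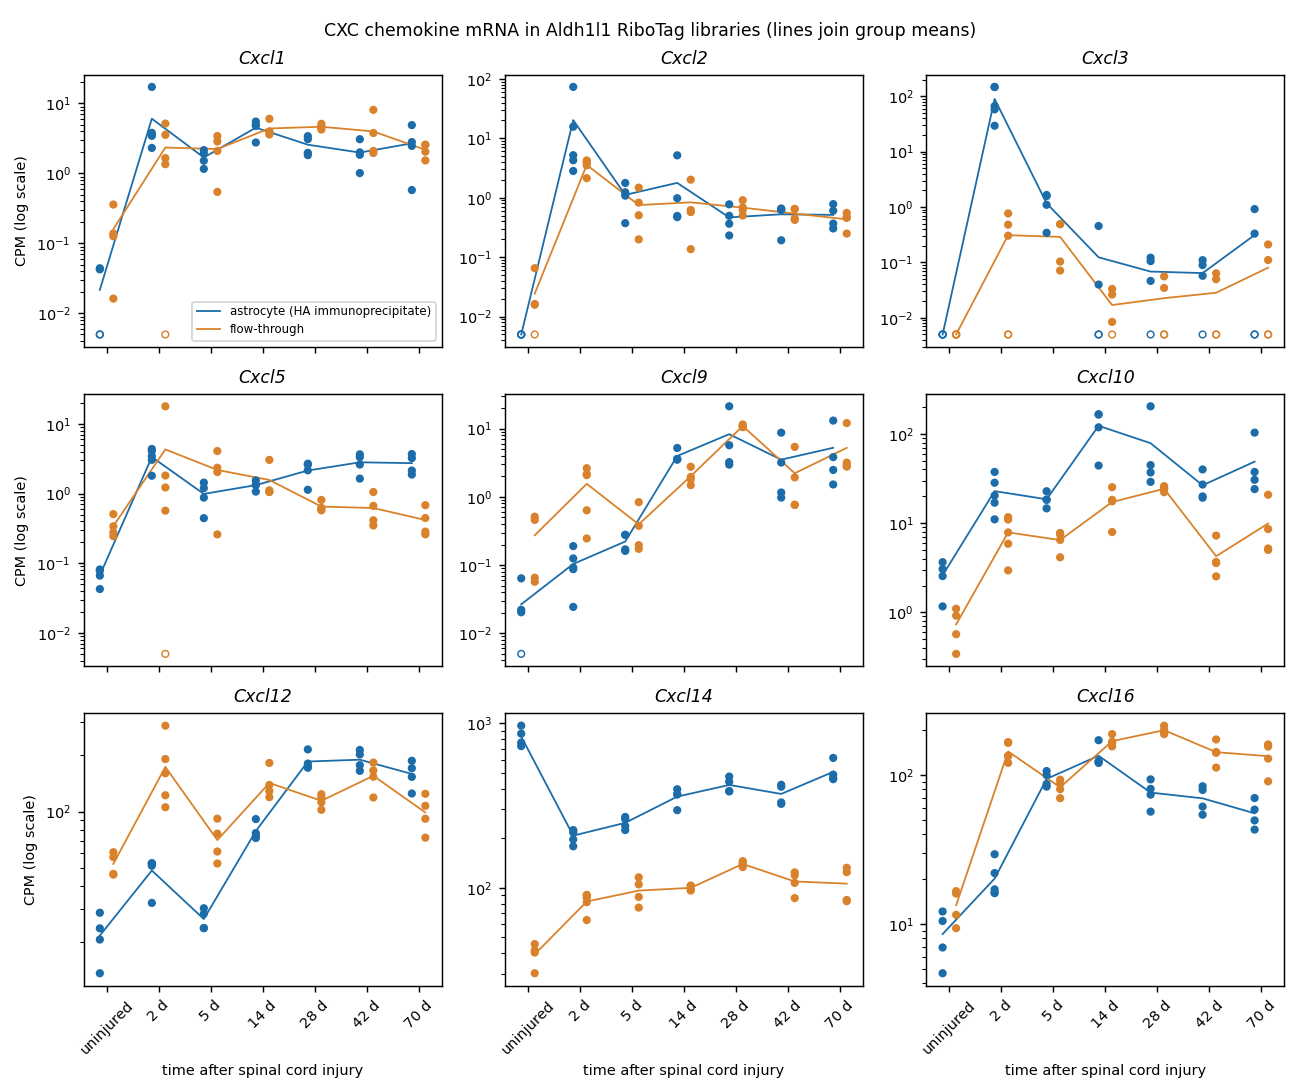
CPM of each of the 9 chemokines (log axis) in every Aldh1l1 astrocyte and flow-through library, for uninjured mice and 6 times after SCI; points are libraries, lines join group means, and libraries with no count are drawn at 0.005 CPM. Cxcl3 peaks at 29.3 to 147 CPM in the astrocyte libraries of 2 d, the astrocyte mean of Cxcl10 is highest at 14 d and that of Cxcl9 at 28 d, and Cxcl14 is lower than in uninjured mice at every time in the astrocyte libraries and higher in the flow-through.

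The interferon-induced ligands reached their highest astrocyte means later, Cxcl10 at 14 d and Cxcl9 at 28 d. Cxcl10 rose by 2 d and again between 5 and 14 d, and Cxcl9 was called from 14 d on. Both were spread widely among mice at 28 d, when 1 mouse stood above the others in both genes. At 14 d, 10 of 12 macrophage, 5 of 8 microglia and 3 of 6 T cell markers were called higher in the same astrocyte libraries (24.5% of all genes were). In sum, macrophage markers were at 4747 to 9860 CPM against 42.8 to 104.8 in uninjured mice, and microglia markers at 775.2 to 1160 against 161.7 to 192.6. Summed T cell markers did not rise, at 19.4 to 29.4 CPM against 23.6 to 30.6. The part of these lists was not tested.

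Cxcl10, a CXCR3 ligand, measured 3.06, 3.65, 2.55 and 1.17 CPM in uninjured astrocyte libraries. It measured 37.5, 11.1, 16.98, 20.4 and 28.4 CPM at 2 d, and 18.4, 22.8, 18.3 and 14.7 at 5 d. Levels at 14 d were 165, 119, 166 and 44.3 CPM. Every injured library was above every uninjured one, also at 28 d (204, 44.8, 37.1 and 29.1), 42 d (19.3, 40.04, 19.97 and 27.1) and 70 d (104, 30.6, 37.5 and 24.1). The log2 difference was 3.13 ± 0.604 (adjusted p = 6.53e-05) and 2.80 ± 0.611 at 2 and 5 d, and it reached 5.51 ± 0.678 at 14 d (adjusted p = 1.63e-07). It was 4.91 ± 0.661, 3.36 ± 0.623 and 4.23 ± 0.643 at 28, 42 and 70 d, and 3.81 without replicate 1 of 28 d. The rise from 5 to 14 d was 2.71 ± 0.587 (adjusted p = 0.00073).

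Cxcl9, the other CXCR3 ligand described here, was nearly absent early, with 0.0221, 0.0639, 0.0204 and 0 CPM in uninjured astrocyte libraries and 0.0921, 0.190, 0.125, 0.0872 and 0.0244 at 2 d. These groups overlapped, and the difference was 1.85 ± 1.187 (adjusted p = 0.171). At 5 d it measured 0.161 to 0.278 CPM (2.91 ± 1.102, adjusted p = 0.0231), above all uninjured libraries but not called. It was called there with only these groups in the fit (2.97, adjusted p = 0.0046) and by DESeq2 (3.03, adjusted p = 0.00118). It then rose to 3.60, 3.50, 3.58 and 5.20 CPM at 14 d (7.04 ± 1.008, adjusted p = 1.39e-06; 4.12 ± 0.787 against 5 d, adjusted p = 0.000179). At 28 d it was at 21.2, 5.71, 3.23 and 2.96 CPM (8.16 ± 1.024; 7.09 without replicate 1). It stayed between 0.976 and 8.71 CPM at 42 d and between 1.52 and 13.1 CPM at 70 d (6.92 ± 1.008 and 7.50 ± 1.014).

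Flow-through libraries showed both ligands as well. Cxcl10 went from 0.343 to 1.10 CPM in uninjured mice to 11.7, 2.96, 5.88, 7.89 and 11 at 2 d (3.45 ± 0.47, adjusted p = 2.05e-07) and 24.8, 22.3, 26 and 24 at 28 d (5.03 ± 0.511). Cxcl9 went from 0.460, 0.512, 0.0653 and 0.0570 CPM to 0.635, 2.16, 0.245, 2.08 and 2.63 at 2 d, and these groups overlapped. The difference of 2.51 ± 0.731 was called (adjusted p = 0.00317), but not without replicate 3 or 4 of the uninjured mice (adjusted p = 0.0147 and 0.0145) or with only these groups in the fit (adjusted p = 0.0422). It was not called at 5 d (0.60 ± 0.741, adjusted p = 0.505) and stood at 11.5, 10.6, 11 and 10.5 CPM at 28 d (5.29 ± 0.825, adjusted p = 3.29e-06). At 42 d its call (3.02 ± 0.757) was lost without replicate 2 (2.02, adjusted p = 0.0213).

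The remaining 3 genes were present in uninjured cord and each took a course of its own. Cxcl14 fell in the astrocyte libraries and rose in the flow-through, Cxcl12 rose late in the astrocyte libraries, and Cxcl16 rose in both fractions on different days.

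Cxcl14, known as a constitutive chemokine, stood at 762, 727, 865 and 967 CPM in uninjured astrocyte libraries. It was 197, 224, 179, 217 and 221 CPM at 2 d and 457, 616, 487 and 465 CPM at 70 d. No injured library reached the lowest uninjured one at any time. Its level fell by 2.00 on the log2 scale at 2 d (SE 0.112, adjusted p = 2.66e-15). The differences were then -1.77 ± 0.12, -1.27 ± 0.118, -0.98 ± 0.117, -1.14 ± 0.118 and -0.71 ± 0.117 at 5, 14, 28, 42 and 70 d, all called. The step from 5 to 14 d was 0.50 ± 0.117 (adjusted p = 0.00111). The 12 astrocyte markers moved with it, since 9 of them fell at 2 d and none rose, with a median log2 difference of -1.86 (over all 18205 genes tested the median was -0.04), and their part in the result was not tested. The flow-through went the other way, from 40.4, 30.2, 41.6 and 45.4 CPM in uninjured mice to 89.6, 81.7, 86.9, 90.5 and 63.6 at 2 d, without overlap (1.10 ± 0.15, adjusted p = 2.03e-07). It was called at all 6 times, up to 1.81 ± 0.159 at 28 d.

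Cxcl12, the CXCR4 ligand, measured 20.7, 28.8, 23.8 and 13.7 CPM in uninjured astrocyte libraries. It was 32.5, 53.0, 52.5, 52.9 and 51.4 CPM at 2 d and returned to 23.9, 23.9, 30.5 and 28.5 CPM at 5 d, where it overlapped uninjured mice (0.27 ± 0.171, adjusted p = 0.175). At 28 d it had climbed to 180, 215, 171 and 173 CPM. The called log2 differences were 1.16 ± 0.166 at 2 d (adjusted p = 6.02e-07), 1.80 ± 0.175 at 14 d, and 3.08 ± 0.184 (adjusted p = 1.18e-13), 3.13 ± 0.184 and 2.87 ± 0.182 at 28, 42 and 70 d. Both the fall from 2 to 5 d (-0.89 ± 0.165, adjusted p = 4.65e-05) and the rise from 5 to 14 d (1.53 ± 0.174, adjusted p = 1.01e-07) were called. In the flow-through it was highest at 2 d in the mean, going from 46.1, 60.7, 57.1 and 46.5 to 287, 122, 105, 160 and 191 CPM (1.75 ± 0.218, adjusted p = 4.22e-08). It was not called at 5 d (0.50 ± 0.22, adjusted p = 0.0526), and lay 0.93 to 1.58 above uninjured mice from 14 to 70 d.

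Cxcl16, the transmembrane ligand of CXCR6, measured 10.4, 12.1, 6.94 and 4.66 CPM in uninjured astrocyte libraries. Values were 29.3, 16.2, 21.9, 16.1 and 17 CPM at 2 d, and 83.2, 99.5, 106 and 86.7 at 5 d. They were 120, 170, 122 and 123 CPM at 14 d. No injured group overlapped the uninjured one. The log2 difference was 1.24 ± 0.232 at 2 d (adjusted p = 3.77e-05) and highest, 3.92 ± 0.263, at 14 d (adjusted p = 1.87e-12). It was 3.43 ± 0.257 at 5 d, and 3.15 ± 0.254, 3.04 ± 0.253 and 2.70 ± 0.25 at 28, 42 and 70 d. Its step from 2 to 5 d was 2.19 ± 0.225 (adjusted p = 9.15e-09). Microglia markers moved alongside it, with summed levels of 238.9 to 333.9 CPM at 2 d and 1057 to 1168 CPM at 5 d in astrocyte libraries (161.7 to 192.6 in uninjured mice; none of the 8 genes at 0). Macrophage markers moved with it as well, from 42.8 to 104.8 CPM in sum in uninjured mice to 2568 to 6142 CPM at 2 d and 10080 to 12280 CPM at 5 d. The part of neither list was tested. Flow-through libraries had already reached 164, 133, 120, 166 and 134 CPM at 2 d, from 15.9, 16.6, 11.5 and 9.35 in uninjured mice (3.46 ± 0.18, adjusted p = 6.82e-16), and the difference was 2.70 to 3.89 at later times.

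Over the 9 genes, 7 were called higher in astrocyte libraries at 2 d, against 30.2% of all genes tested, 6 at 5 d (28.7%), and 7 each at 14 d (24.5%), 28 d (22.8%), 42 d (23.3%) and 70 d (23.9%). The single gene called lower was Cxcl14 each time, where the share of all genes was 29.9%, 28.1%, 22.8%, 19.1%, 20% and 21.5% from 2 to 70 d. As 5 of the 9 could enter only through injured libraries, these counts describe the genes and give no support of their own. From 2 to 5 d, 5 of the 9 fell (Cxcl1, Cxcl2, Cxcl3, Cxcl5 and Cxcl12; 19.6% of all genes fell) and Cxcl16 rose (21.8% of all genes rose). From 5 to 14 d, 4 rose (Cxcl9, Cxcl10, Cxcl12 and Cxcl14; 12.7% of all genes) and none was called lower. With only these groups fitted, Cxcl1 (1.39, adjusted p = 0.000425) and Cxcl16 (0.49, adjusted p = 0.00404) were called higher too. In the flow-through, all 9 were called higher at 2 d (32.6% of all genes), 6 at 5 d (27.7%), and 7 each at 14 d (24.6%), 28 d (26.4%), 42 d (25.3%) and 70 d (21.8%), Cxcl2 and Cxcl3 having entered only through injured libraries. With only the 2 d and uninjured groups in the fit, 5 of the 9 were called at 2 d. These comparisons share their uninjured mice.

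The ratio of the astrocyte to the flow-through library asked where each mRNA was more abundant, and a gene was called when it differed at least 2-fold between the fractions, with an adjusted p under 0.01. Cxcl14 and, at most times, Cxcl10 were higher in the astrocyte libraries. Cxcl16 and, early, Cxcl12 were higher in the flow-through, and Cxcl5 changed sides. The remaining ligands were called at no more than 1 time each.

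**Figure D3:**
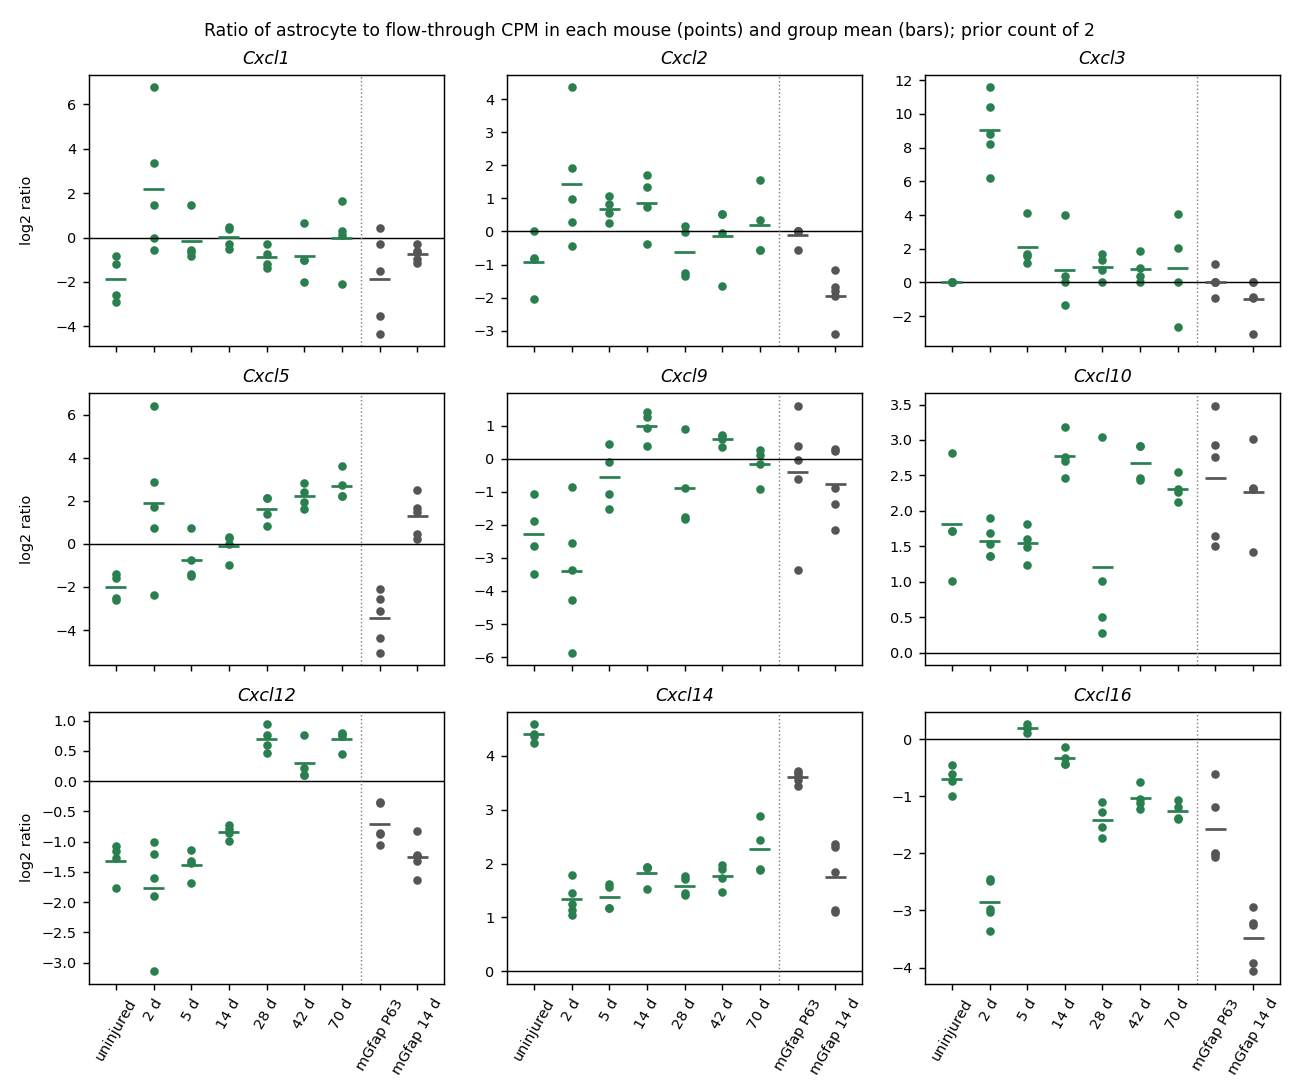
Astrocyte to flow-through ratio of each chemokine (log2, prior count of 2) by time after SCI in the Aldh1l1 line and, right of the dotted line, in the mGfap line. Each point is 1 mouse, the bars are group means, and 0 means equal levels; where 1 library is empty, the prior count sets the point. Cxcl14 falls from 4.24 to 4.59 in uninjured mice to between 1.04 and 1.79 at 2 d, and Cxcl5 goes from below 0 in uninjured mice to above 0 in all mice from 28 d on.

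Cxcl14 was higher in the astrocyte library of every mouse. Its log2 ratio was 4.24 to 4.59 in the 4 uninjured mice, 1.04 to 1.79 at 2 d and 1.88 to 2.89 at 70 d. It was 4.41 ± 0.148 in the fit of uninjured mice (adjusted p = 2.38e-10), 1.30 ± 0.121 at 2 d and 2.23 ± 0.179 at 70 d, and was called at every time. The change of the ratio against uninjured mice was -2.91 ± 0.189 at 2 d (adjusted p = 8e-19). At 5, 14, 28, 42 and 70 d it was -2.92 ± 0.199, -2.49 ± 0.198, -2.73 ± 0.198, -2.55 ± 0.198 and -2.10 ± 0.197. The fractions thus lay closer together in this gene at each of the 6 times than in uninjured mice, while the median change over all genes was 0.30 at 2 d and 0.19 at 5 d on the log2 scale, 0.13 at 14 d and 0.10 at 28 d.

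Cxcl10 was higher in the astrocyte library of every mouse too. The fitted log2 ratio was 1.85 ± 0.429 in uninjured mice (adjusted p = 0.00227), 1.51 ± 0.384 and 1.42 ± 0.184 at 2 and 5 d, 2.75 ± 0.492 at 14 d (adjusted p = 0.00103), and 2.65 ± 0.34 and 2.27 ± 0.561 at 42 and 70 d, all called. At 28 d it was 1.69 ± 0.681 (adjusted p = 0.0598), with per-mouse ratios from 0.27 to 3.04, and 0.61 without astrocyte replicate 1. At 2 d the call ended without astrocyte replicate 1 or 5 or flow-through replicate 3 (adjusted p = 0.0111 to 0.0125). At 70 d it ended without astrocyte replicate 1 or any of flow-through replicates 2 to 4 (adjusted p = 0.0158 to 0.0227), and without a low-count filter (adjusted p = 0.021). No change of the ratio against uninjured mice was called (-0.21 to 1.07).

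For the neutrophil-attracting ligands, the ratio was called for Cxcl3 at 2 d and for Cxcl5. Cxcl3 had a log2 ratio of 8.81, 6.20 and 8.20 in mice 1, 4 and 5 at 2 d, and the flow-through of the other two held no count. The fitted ratio was 8.10 ± 0.87 (adjusted p = 6.68e-06). At 5 d the fit gave 1.91 ± 0.621 (adjusted p = 0.0145; called with the mouse as a block, 2.03, adjusted p = 0.0012, in the newer edgeR fit, adjusted p = 0.00753, and by DESeq2, adjusted p = 0.00204). Cxcl1 and Cxcl2 were not called at any time, with 1.35 ± 0.891 (adjusted p = 0.199) and 2.48 ± 0.808 (adjusted p = 0.017) at 2 d. Without astrocyte replicate 5 of 2 d, Cxcl2 was at 0.95 (adjusted p = 0.0937), while DESeq2 called it with all libraries (2.49, adjusted p = 0.00598). Neutrophil markers were also higher in the astrocyte libraries of 2 d, where 11 of the 12 genes of the list had a ratio above 0 (mean 2.15 ± 0.551 on the log2 scale, SD, n = 5 mice). Their summed levels were 506.9 to 1402 CPM against 81.5 to 237.5 CPM in the flow-through, with no gene at 0 in either fraction. The platelet ligand Ppbp measured 22.1 ± 12.2 CPM there against 0.472 ± 0.397 CPM in the flow-through, and the receptor Cxcr2, a member of the neutrophil list, 38.8 ± 24.7 against 2.88 ± 3.28. The neutrophil list was higher in the astrocyte libraries of uninjured mice as well, with a mean log2 ratio of 1.70 ± 0.168 (SD, n = 4 mice). There 9 of 12 ratios were above 0, and summed levels were 115.7 to 477.9 CPM against 31.07 to 84.17 CPM. From 5 to 70 d its mean ratio was 1.52 to 2.36. The macrophage list had 8 of 12 ratios above 0 at 2 d, with summed levels of 2568 to 6142 CPM against 1395 to 4306 CPM. The part of these cells in the Cxcl3 and Cxcl2 values was not tested.

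Cxcl5 crossed over. Its log2 ratio was -2.59 to -1.38 in uninjured mice and 2.21 to 3.61 at 70 d, without overlap. In uninjured mice it lay under the low-count limit in all 4 astrocyte libraries (4 to 8 counts), so it entered that test through the flow-through and could only be lower. The fit gave -2.32 ± 0.571 in uninjured mice (adjusted p = 0.00335, but -2.29 and adjusted p = 0.0202 with the mouse as a block). It gave 1.70 ± 0.315 (adjusted p = 0.000386), 2.20 ± 0.43 and 2.67 ± 0.407 at 28, 42 and 70 d, and the ratio was not called at 2, 5 or 14 d (-1.25 to -0.33). In single mice at 2 d the log2 ratio ran from -2.37 to 6.43 and was above 0 in 4 of 5. The lowest was mouse 1, with its high flow-through level, and the highest mouse 2, whose flow-through held no count. The uninjured call was also lost without replicate 1 or 2 of either fraction (adjusted p = 0.0103 to 0.0186). The change against uninjured mice was 4.12 ± 1.119 at 28 d (adjusted p = 0.00257; 0.0123 without uninjured replicate 1), 4.59 ± 1.128 at 42 d and 5.08 ± 1.133 at 70 d (adjusted p = 0.000438). The newer edgeR fit did not call these 3 changes (adjusted p = 0.0194 to 0.0479), and at 2 d a change was called only with the mouse as a block (2.15 ± 1.05 without it, adjusted p = 0.0733; 4.04 with it, adjusted p = 0.000751). Cxcl1 changed its ratio at 2 d alone (4.33 ± 1.179, adjusted p = 0.00139), a call that ended without replicate 5 of 2 d (3.34, adjusted p = 0.0109) or without uninjured replicate 2 (4.08, adjusted p = 0.0134), and in the newer fit (adjusted p = 0.0794). Cxcl2 changed by 6.84 ± 2.373 (adjusted p = 0.0116), and it was called without replicate 2 of 2 d (7.17, adjusted p = 0.00906) and by DESeq2 (6.07, adjusted p = 0.000118), while without replicate 5 of 2 d it was 5.31 (adjusted p = 0.0139). DESeq2 also called it at 14 d (4.64, adjusted p = 0.00811). For Cxcl3 edgeR gave no change, as it was empty in both fractions of uninjured mice, and DESeq2 called 7.68 at 2 d (adjusted p = 0.00671).

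Cxcl16 was tilted toward the flow-through at 2 d and after 14 d, and level at 5 d. Its log2 ratio was -3.36 to -2.45 at 2 d, 0.11 to 0.26 at 5 d and -0.45 to -0.14 at 14 d, so that 2 d overlapped neither. The fitted ratio was -2.86 ± 0.186 at 2 d (adjusted p = 1.37e-07), 0.09 ± 0.098 at 5 d (adjusted p = 0.433), -1.40 ± 0.129 at 28 d, -1.01 ± 0.161 at 42 d and -1.30 ± 0.193 at 70 d. That of 42 d was just past the 2-fold limit and fell under it without flow-through replicate 1 or astrocyte replicate 2 or 4 (-0.91 to -0.97). Against uninjured mice (-0.62 ± 0.29, adjusted p = 0.0751) the ratio changed by -2.03 ± 0.282 at 2 d (adjusted p = 1.87e-08) and by 0.94 ± 0.294 at 5 d (adjusted p = 0.00906). The call at 5 d was lost without any 1 of the 4 mice of 5 d or without uninjured replicate 1, 3 or 4 (adjusted p = 0.0128 to 0.0216), and with DESeq2 (0.83, adjusted p = 0.013). At 28 d the change was -0.68 ± 0.294 (adjusted p = 0.0612) and called with the mouse as a block (-0.65, adjusted p = 0.00213). Summed microglia markers stood at 238.9 to 333.9 CPM against 1565 to 2352 CPM in the flow-through at 2 d and at 1057 to 1168 against 1339 to 1452 CPM at 5 d. Gene by gene, the mean log2 ratio of this list was -1.45 at 2 d and -0.76 at 5 d, with 2 of 8 genes above 0 on either day. Macrophage markers stood at 10080 to 12280 CPM against 2081 to 2367 CPM in the flow-through at 5 d, and the part of either list was not tested.

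Cxcl12 moved from the flow-through toward the astrocyte libraries. Its log2 ratio was -1.76 to -1.07 in uninjured mice, -3.14 to -1.01 at 2 d and 0.47 to 0.94 at 28 d. The fit called -1.26 ± 0.201 in uninjured mice (adjusted p = 0.000208), and -1.86 ± 0.251 and -1.50 ± 0.155 at 2 and 5 d. Later ratios stayed within 2-fold, with -0.94 ± 0.12 at 14 d and 0.68 ± 0.083, 0.30 ± 0.138 and 0.66 ± 0.171 at 28, 42 and 70 d. The change against uninjured mice was 2.04 ± 0.291 at 28 d (adjusted p = 1.17e-07), 1.63 ± 0.29 at 42 d and 2.00 ± 0.291 at 70 d. Markers of pericytes and stroma, another source of this gene in many tissues, summed in the flow-through to 239.5 to 509.9 CPM in uninjured mice, 4547 to 5237 CPM at 14 d and 1252 to 1531 CPM at 28 d. In the astrocyte libraries they were at 360.4 to 776.4, 1118 to 1618 and 604.6 to 1157 CPM. None of the 8 genes was at 0, and their part was not tested.

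Cxcl9 had a ratio below 0 at 2 d in all 5 mice (-5.86 to -0.87) and above 0 in all 4 at 14 d (0.38 to 1.40). The fitted ratio was -3.91 ± 0.777 at 2 d (adjusted p = 0.000807, but -3.64 and 0.0115 with the mouse as a block) and 0.90 ± 0.216 at 14 d (adjusted p = 0.00223), within 2-fold. It changed against uninjured mice by 4.31 ± 1.257 at 14 d (adjusted p = 0.00568), and this call was lost without any 1 of replicates 2 to 4 of 14 d or uninjured replicates 1 and 2 (adjusted p = 0.0122 to 0.0314), and in the newer fit (adjusted p = 0.112). At 28 d its ratio was -0.41 ± 0.631 (adjusted p = 0.583), and -1.46 and called without astrocyte replicate 1 (adjusted p = 5.74e-05), as was Cxcl1 (-0.86 ± 0.221 with all libraries, within 2-fold, and -1.01 without that one). At 42 and 70 d the change was called with the mouse as a block, and at 42 d by DESeq2 (4.09, adjusted p = 0.00178), but not otherwise at this threshold (3.97 ± 1.261 without it, adjusted p = 0.0116, and 3.90 with it, adjusted p = 0.0005; 3.29 ± 1.26 without it, adjusted p = 0.0471, and 3.10 with it, adjusted p = 0.00558).

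Counted over the members that passed the low-count filter, 2 of 5 were called higher and 2 lower in uninjured astrocyte libraries (18.9% and 22.2% of all genes), and 3 and 3 of 9 at 2 d (19.7% and 21.4%). The counts were 2 and 1 of 9 at 5 d (16% and 19.2%), 2 and 0 of 8 at 14 d (15.4% and 18.9%), and 2 and 1 of 8 at 28 d (17.8% and 19.2%). They were 3 and 1 of 8 at 42 d (13.1% and 16.1%) and 3 and 1 of 9 at 70 d (13.7% and 17.1%). Cxcl3 entered at 2 d through its astrocyte libraries alone and Cxcl9 through its flow-through libraries alone, as did Cxcl5 in uninjured mice. Changes of the ratio were called for 3 of 9 at 2 d (50.7% of all genes), 2 at 5 d (28.5%), 2 at 14 d (24.5%), and 3 each at 28 d (28.4%), 42 d (23.3%) and 70 d (17.7%). Cxcl3 was empty in both fractions of uninjured mice, and DESeq2 called 5 members at 2 d, so these counts are a description.

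The mGfap line was used to ask whether the chemokines responded in another set of tagged cells. At 14 d after SCI, 7 ligands were called higher and Cxcl14 lower, with 1 gene, Cxcl16, far lower than in the Aldh1l1 line. Cxcl3 was not detected, at 0 counts in all 5 astrocyte libraries.

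Against P63 mice, of which 3 of 5 were male while all injured mice were female, 7 of the 8 members tested were called higher (27.7% of all genes) and Cxcl14 lower (16.4%). Cxcl1, Cxcl2 and Cxcl5 reached the low-count limit in at most 1 P63 library each, entered through the injured mice and had to be higher. Cxcl10 measured 93.9, 180, 71.7, 58.1 and 119 CPM at 14 d and 2.51, 7.76, 5.44, 5.63 and 1.83 at P63, without overlap (4.57 ± 0.474, adjusted p = 2.96e-07). Cxcl1 (1.72 to 6.38 CPM), Cxcl5 (1.32 to 5.93) and Cxcl9 (1.52 to 6.12) rose by 6.11 ± 0.826, 5.53 ± 0.598 and 4.23 ± 0.558. Cxcl2 measured 0.625, 0.0628, 0.178, 0.668 and 0.0175 CPM, at least 7.12-fold over the floor in the mean (adjusted p = 0.00299). Its call was lost with labelled sex in the fit (adjusted p = 0.0363), with counts halved (adjusted p = 0.0106) and in the newer edgeR fit (adjusted p = 0.157). Cxcl12 rose by 1.18 ± 0.176, Cxcl16 by 2.63 ± 0.313, and Cxcl14 fell from 639, 565, 572, 676 and 580 CPM to 454, 296, 259, 264 and 340 CPM (-0.82 ± 0.135, adjusted p = 4.31e-05). The median over all genes was 0.17 in this comparison. In the flow-through of the line 7 of 8 were called higher (33.6% of all genes), Cxcl14 among them (0.97 ± 0.15), and Cxcl5 was not (1.03 ± 0.513, adjusted p = 0.0772).

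Set against the Aldh1l1 line at 14 d, 1 of 8 members differed between astrocyte libraries (23.3% of all genes did). Cxcl16 measured 20.8, 13.2, 13.8, 36.4 and 13.8 CPM in the mGfap line and 120 to 170 CPM in the Aldh1l1 line, a difference of -2.70 ± 0.314 (adjusted p = 2.1e-06) without overlap. The flow-through measured 159, 126, 231, 341 and 211 CPM in the mGfap line and 155 to 187 CPM in the Aldh1l1 line. The other 7 differences ran from -2.43 ± 1.027 (Cxcl2, adjusted p = 0.0956) to 1.18 ± 0.504 (Cxcl5, adjusted p = 0.0831; 0.00234 in the newer edgeR fit), and Cxcl10 was -0.18 ± 0.427 and Cxcl14 -0.09 ± 0.142. Between the responses of the lines to injury, none of 8 passed edgeR's test at an adjusted p under 0.01 (12.7% of all genes did, and 5975 of 17848 genes had an unadjusted p under 0.05). DESeq2 called 2, Cxcl9 (-2.85 ± 0.894 in edgeR, adjusted p = 0.0282) and Cxcl16 (-1.32 ± 0.442, adjusted p = 0.0399). The change of Cxcl2 could not be estimated there, as it was empty in both uninjured groups. The lines differ also in the age and sex of their uninjured mice, which cannot be told apart from the line in this response.

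**Figure D4:**
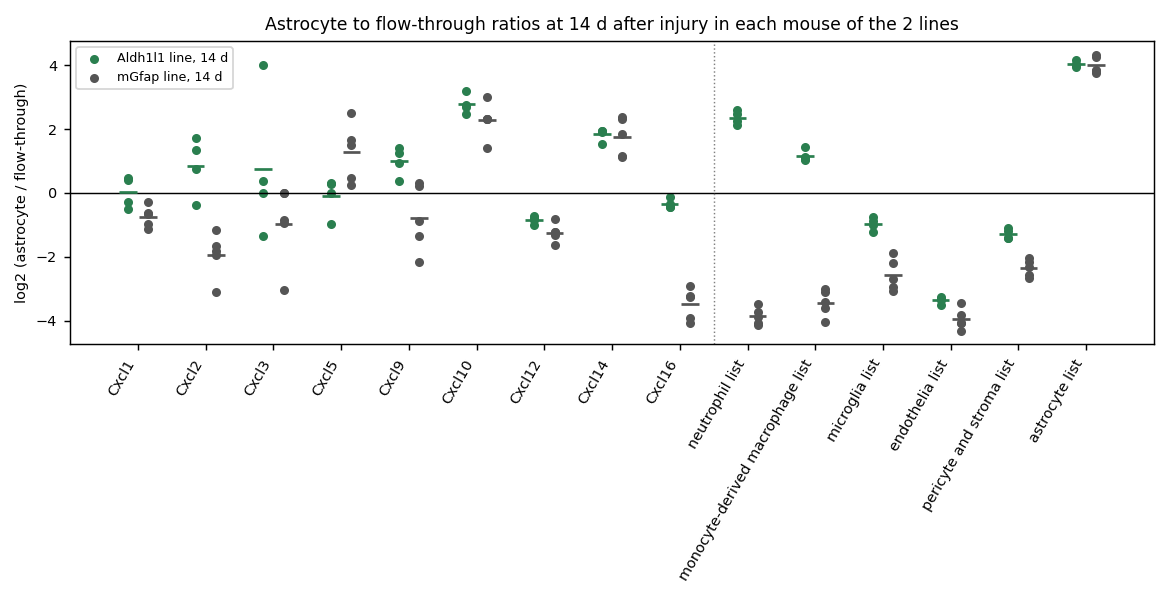
Log2 ratio of astrocyte to flow-through level at 14 d after SCI in each mouse of the Aldh1l1 and mGfap lines (points, mice; bars, group means), for the 9 chemokines and for lists of cell type markers to the right of the dotted line. Cxcl16 lies between -4.07 and -2.93 in the mGfap line and between -0.45 and -0.14 in the Aldh1l1 line, and the neutrophil and macrophage lists separate the lines likewise.

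The ratios of fractions in the mGfap line put Cxcl10 (2.23 ± 0.373) and Cxcl14 (1.71 ± 0.224) in the astrocyte libraries at 14 d and Cxcl12 (-1.34 ± 0.259) and Cxcl16 (-3.47 ± 0.362, adjusted p = 1.11e-05) in the flow-through, 2 and 2 of 8 members (15.6% and 18.7% of all genes). Cxcl2 was -1.97 ± 0.968 (adjusted p = 0.0979), and -2.10 with adjusted p = 0.00207 with the mouse as a block. At P63 Cxcl10 (2.63 ± 0.37) and Cxcl14 (3.58 ± 0.078) were called in the astrocyte libraries and Cxcl5 (-3.47 ± 0.684) and Cxcl16 (-1.61 ± 0.219) in the flow-through, 2 and 2 of 6 (17.8% and 23.1%), where Cxcl5 had again entered through the flow-through. In a comparison chosen after the data were seen, the lines differed at 14 d in the ratio of Cxcl16 (-2.99 ± 0.411, adjusted p = 2.07e-05), 1 of 8 members (16.1% of all genes). Cxcl9 (-1.62 ± 0.562, adjusted p = 0.043) and Cxcl2 (-2.91 ± 1.431, adjusted p = 0.172; -2.82 and 0.00221 with the mouse as a block) were not called, and Cxcl10 (-0.46 ± 0.594) and Cxcl14 (0.02 ± 0.263) showed small differences with wide errors.

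Leukocyte markers differed between the lines as well. In mGfap mice at 14 d none of 12 neutrophil and none of 12 macrophage markers had a ratio above 0 (means of -3.87 ± 0.264 and -3.44 ± 0.407, SD). Their astrocyte libraries held 6.91 to 48.3 CPM of neutrophil and 295.3 to 1115 CPM of macrophage markers in sum, against 158.2 to 312.0 and 4747 to 9860 CPM in the Aldh1l1 line. Microglia markers summed to 179.0 to 396.7 CPM against 775.2 to 1160 CPM. Of the 12 neutrophil markers none was at 0 in either line at 14 d. Lists of oligodendrocytes, oligodendrocyte progenitors and ependyma differed too, with mean ratios of 1.44, 2.09 and 1.84 in mGfap mice at 14 d. Every gene of these lists was above 0 there. In the Aldh1l1 line the means were -3.32, -1.30 and -0.70. Summed oligodendrocyte markers were 28010 to 41850 CPM in mGfap astrocyte libraries against 2366 to 3075 CPM in the Aldh1l1 line. The part of all these lists in the Cxcl16 difference was not tested.

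Males and females of the Aldh1l1 line were compared at 5 and 14 d together. No member was called in either fraction by edgeR, where 0.051% of all genes were called in astrocyte and 0.267% in flow-through libraries (583 and 4540 genes had an unadjusted p under 0.05). Cxcl9 had the largest difference, with 15.5, 13.2, 7.33 and 9.52 CPM in astrocyte libraries of males at 14 d, all above the 3.50 to 5.20 CPM of the other mice, but 0.308, 0.216, 0.527 and 0.104 CPM at 5 d, which overlapped 0.161 to 0.278 CPM. Over both times it was 1.13 ± 0.265 (adjusted p = 0.509; 0.00813 in the newer fit of edgeR, which called this 1 member) in astrocyte and 1.17 ± 0.428 (adjusted p = 0.102) in flow-through libraries. The other members lay between -0.51 and 0.19 in astrocyte libraries.

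Between P0 and P63, 1 of the members tested differed. Cxcl14 measured 42.7, 55.3, 29.3 and 69.8 CPM at P0 and 639, 565, 572, 676 and 580 CPM at P63 in mGfap astrocyte libraries, a difference of -3.60 ± 0.212 (adjusted p = 5.7e-14) without overlap. All P0 mice were labelled male and P63 mice were of both sexes. Between them it was 65.3 to 142 CPM at P3, 172 to 207 at P7 and 429 to 520 at P14. It was the 1 of 6 members tested that was called lower at P0 (25.1% of all genes), and none was called higher. Cxcl10 (-0.65 ± 0.457), Cxcl12 (-0.20 ± 0.295) and Cxcl16 (-0.09 ± 0.439) were not called, and Cxcl12 was widely spread at P0, with 8.78 to 56.1 CPM. Summed astrocyte markers also increased, from 5981 to 16730 CPM at P0 to 58420 to 67270 CPM at P63, and their part was not tested.

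**Figure D5:**
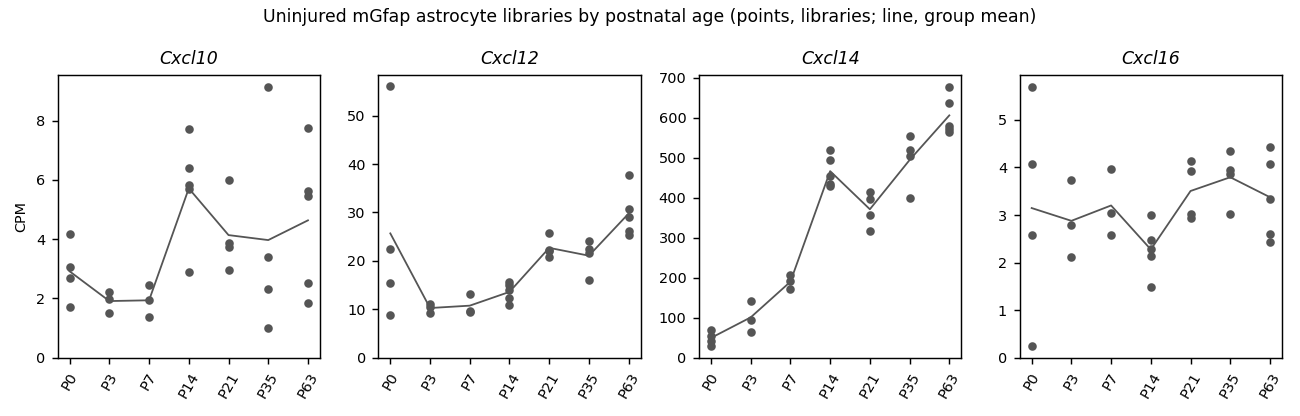
CPM of Cxcl10, Cxcl12, Cxcl14 and Cxcl16 in astrocyte libraries of uninjured mGfap mice from P0 to P63 (points, libraries; line, group mean; linear axes from 0). Cxcl14 climbs from 29.3 to 69.8 CPM at P0 to 565 to 676 CPM at P63, and the other 3 genes show no such course.

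Receptors and regulators of the chemokines were read from lists. A gene of these or of the marker lists that lay under the low-count limit in uninjured libraries entered only through injured ones. Such a gene had to be higher, so the counts of called list genes are given as a description. Of 8 CXC receptor genes, 5 were called higher and none lower in astrocyte libraries at 2 d (median log2 difference 2.35, against -0.04 over all genes, of which 30.2% were called higher), and 6 and none at 14 d (2.85; 24.5% of all genes were called higher). Cxcr2 was higher at 2 d (5.58 ± 0.722, adjusted p = 2.19e-07) and not called at 14 d (1.98 ± 0.653, adjusted p = 0.0119). Cxcr3, the receptor of Cxcl9 and Cxcl10, rose by 2.71 ± 0.762 at 2 d and 5.58 ± 0.791 at 14 d, to 3.07 ± 0.834 CPM (n = 4). Cxcr4, at 11.97 ± 0.295 CPM in uninjured astrocyte libraries, rose to 47.6 ± 22.3 at 2 d and 163.8 ± 27.8 at 14 d, and it stood at 29.8 ± 7.89 CPM in the mGfap line at 14 d. Ackr3, the other receptor of Cxcl12, was not called at 2 d (0.14 ± 0.093, adjusted p = 0.183) and rose by 0.54 ± 0.098 at 14 d. Cxcr6, the receptor of Cxcl16, was at 0.697 ± 0.296 CPM in the astrocyte fraction at 14 d and at 1.06 ± 0.582 CPM in the flow-through. Summed macrophage markers in these Aldh1l1 astrocyte libraries were at 42.8 to 104.8 CPM in uninjured mice, 2568 to 6142 at 2 d and 4747 to 9860 at 14 d. Neutrophil markers were at 115.7 to 477.9, 506.9 to 1402 and 158.2 to 312.0 CPM, respectively. The part of either list in the receptor values was not tested.

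Other CXC ligands were tested for 3 of 6 genes at 2 d, and 2 of them rose (30.2% of all genes did, which holds for each list at 2 d here), the platelet ligands Pf4 (7.17 ± 0.466, to 148.8 ± 71.8 CPM) and Ppbp (4.06 ± 0.962). Of 10 NF-kappaB components and feedback genes, 9 were called higher at 2 d and none lower (median 1.34), among the most abundant Nfkbia (1.11 ± 0.172), Rela (0.56 ± 0.082) and Nfkb1 (0.64 ± 0.129). Of 7 interferon response regulators, 5 were called higher at 2 d (median 1.17) and 7 at 28 d (median 1.71; 22.8% of all genes were called higher), where Irf9 was 1.19 ± 0.177 and Stat2 0.83 ± 0.211. Cytokines that induce these chemokines were called higher for 4 of 5 genes tested at 2 d, with Il1b at 6.17 ± 0.835, Tnf at 7.31 ± 1.064 and Il6 at 9.66 ± 1.889. The part of the leukocytes whose markers rose in the same astrocyte libraries was not tested for these lists either.

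The genes whose course was most like that of each member were named from the 29 Aldh1l1 astrocyte libraries of the time course, by Pearson's r of log2 CPM among 14170 genes with a mean of at least 1 CPM, as a description over libraries that share their groups. They were Dhrs1 (0.943), Cebpd and Anxa3 for Cxcl1, and Ltbp2 (0.925), Il1r2 (a gene of the neutrophil list) and Mvp for Cxcl2. For Cxcl3 they were Gm14586 and Rpl14 (both 0.961) and Prmt1, and for Cxcl5 S100a6 (0.940), Mmp3 and Maff. Cxcl9 was nearest to Ass1 (0.947), Serping1 and Fam167a, and Cxcl10 to the interferon-induced Gbp5 (0.909), Ccl5 and Ifi47. The nearest genes were Gfod2 (0.958), Pawr and Pdpn for Cxcl12, Enho (0.979), 1500009C09Rik and Zcchc24 for Cxcl14, and Abcg1 (0.988), Mfng and Cybb for Cxcl16. Among the members themselves, r was 0.863 between Cxcl1 and Cxcl5, 0.831 between Cxcl1 and Cxcl2, 0.794 between Cxcl9 and Cxcl10, 0.838 between Cxcl9 and Cxcl12, 0.796 between Cxcl1 and Cxcl10, 0.432 between Cxcl1 and Cxcl3, and -0.853 between Cxcl2 and Cxcl14.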

How the data were processed

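Poly-A RNA of 117 RiboTag libraries was sequenced by the study as paired reads. In Galaxy, the authors used Trimmomatic for trimming, HISAT2 for alignment (mm10) and featureCounts for counting. The deposited values are whole-number counts per gene, without normalization, for 27179 Entrez identifiers (25275 matched a RefSeq symbol), and files in another identifier order (18) were joined by identifier. Between 59.9 and 72.6% of counts from 1 to 50 were even, against 49.4 to 53.0% above, so both mates of a pair seem to have been counted and 2 counts may be 1 fragment. Totals per library were 40710428 to 136008399 counts, and limits from counts cover counting error only.

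Counts were analysed in R 4.3.3 with edgeR 4.0.16 (TMM, filterByExpr, glmQLFit with legacy=TRUE and robust=TRUE) and, as an alternative, DESeq2 1.42.0. Benjamini-Hochberg adjustment ran over all genes tested, and the scripts were tested on simulated data. The SE is the absolute log2 fold change divided by the square root of F. Samples were grouped by title and labels. The groups of a time course were fitted together, and each ratio of fractions alone. Levels use 1 scaling over all libraries, which differs from those of the fits by at most 0.146 on the log2 scale, and per-mouse ratios use a prior count of 2. A fold over an empty group is a bound against 3 counts per library.

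Astrocyte and flow-through libraries of a mouse share a replicate number. Their deviations from the group means, over 14672 genes, correlated with r of -0.065 to 0.717 in 47 pairs (median 0.276, 39 over 0.1). They were low at 2 d (r of -0.065 to 0.107) and at 28 d (0.007 to 0.127), and per-mouse ratios and block fits of those days rest on such pairs. The pairs come from the same animal, and a mouse block was fitted as an alternative. The 9 members are always named, as are the 3 most abundant genes of a list, the receptors of the ligands described, and the 3 most alike genes, except 1 gene that is not reported here. Members and lists were chosen with earlier results of these data known. Promoters come from RefSeq tables of GRCm38.p6.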

Additional observations from a re-analysis of the deposited data

Results flagged for a closer look

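Groups of a member with 4 or 5 libraries and a mean of at least 10 counts were searched. A library set far apart from the others of its group was found in 19 of them. Chance sets a library apart in about 1 in 20 of all groups searched, so part of the 19 can be chance. At 2 d the libraries set apart were astrocyte replicate 5 with 17.3 CPM of Cxcl1 and 73.2 of Cxcl2, flow-through replicate 1 with 17.9 CPM of Cxcl5, and astrocyte replicate 1, low with 32.5 CPM of Cxcl12. At 5 d, flow-through replicate 3 of the males was high in Cxcl9 (1.28 CPM) and Cxcl16 (118 CPM). At 14 d, replicate 2 was high in Cxcl1 (6.05 CPM) and Cxcl5 (3.05 CPM) of the flow-through and in Cxcl2 (5.16 CPM) and Cxcl16 (170 CPM) of the astrocyte libraries, while astrocyte replicate 3 was high in Cxcl3 (0.455 CPM) and replicate 4 in Cxcl9 (5.2 CPM). Replicate 1 was high at 28 d in Cxcl9 (21.2 CPM) and Cxcl10 (204 CPM) of the astrocyte libraries, and at 70 d in Cxcl10 (104 CPM) of the astrocyte and Cxcl9 (12.1 CPM) of the flow-through libraries. Astrocyte replicate 3 at 42 d was low in Cxcl2 (0.192 CPM), and in the mGfap line replicate 4 at 14 d was high in Cxcl5 in both fractions (5.93 and 4.29 CPM).

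In 17 cases the response of a member differed between fractions or lines by a test of the difference itself. Against uninjured mice, the astrocyte to flow-through ratio of Cxcl14 changed at all 6 times, by -2.91, -2.92, -2.49, -2.73, -2.55 and -2.1 on the log2 scale from 2 to 70 d. That of Cxcl1 changed by 4.33 at 2 d, that of Cxcl16 by -2.03 at 2 d and 0.94 at 5 d, and that of Cxcl9 by 4.31 at 14 d. At 28, 42 and 70 d, the ratio of Cxcl5 changed by 4.12, 4.59 and 5.08, and that of Cxcl12 by 2.04, 1.63 and 2.0. Between the lines at 14 d, the ratio of Cxcl16 differed by -2.99.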

How the results depend on the processing

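Over 37 comparisons, 168 member results were called. None changed direction under any alternative, and 15 lost their call without 1 library. Without a 2-fold limit, the genes called between fractions rose from 7237 to 10920 in uninjured mice, 6203 to 11346 at 5 d, 6100 to 11079 at 14 d, 6514 to 11313 at 28 d, 5032 to 8054 at 42 d and 7020 to 11618 at P63, and the members called from 2 to 5 at 14 d and 3 to 5 at 28 d. With the 2 groups fitted alone, 5 of 9 members were called in the flow-through at 2 d. For changes of the ratio, DESeq2 called 5 members at 2 d and 1 at 5 d, size factors of DESeq2 in edgeR 1 at 5 d, and the fit of edgeR 4 and halved counts (added after the data were seen) 1 each at 14 d. For the difference in response between lines, members called went from 0 to 2 with FDR under 0.05 and with DESeq2, and genes from 2258 to 3882 with FDR under 0.05 and to 1423 with labelled sex. The fit of edgeR 4 called 2 members between lines at 14 d and 1 between sexes in astrocyte libraries. The difference between lines in the ratio had 2 members with FDR under 0.05 and 2 with the replicate block. Genes differing between sexes in the flow-through went from 50 to 1329 with FDR under 0.05 and 931 with DESeq2. The cause of these shifts was not tested.

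Leaving out 1 library, members called ranged from 1 to 2 for changes of the ratio at 5 and 14 d, for the ratio between lines and for P0, from 3 to 5 for the ratio at 28 d, from 0 to 1 for the response between lines, and genes between sexes in the flow-through from 6 to 1033. The mouse block changed no member call other than those given with the results. Replicate numbers of different mice do not pair them (84 pairs, 14 with r over 0.1), and as a replicate block they ended the fall of Cxcl1 from 2 to 5 d (-0.98, adjusted p = 0.0734). With a prior count of 0.5, 2 of 99 mean ratios moved by more than 1 SD. Depth limits Cxcl1, Cxcl2, Cxcl3, Cxcl5 and Cxcl9, whose uninjured astrocyte libraries held few or no counts.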
